A study of Mus musculus with 6 samples.

Results

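The axon guidance genes of the semaphorin, Slit, ephrin and netrin systems were compared in lumbar dorsal root ganglia (DRGs) of naïve adult mice with and without HDAC4 in Nav1.8-expressing sensory neurons. Members were all genes named as semaphorins of classes 3 to 7, plexins A, B and D, neuropilins, Slits and Robo receptors, ephrins and Eph receptors, netrins, Unc5 receptors or *Dcc*. Of the 68 such symbols in the RefSeq mouse annotation, 66 had a probe set that carries no other gene's symbol, out of 22180 genes measured that way. The 66 comprise 34 ligands and 32 receptors. *Ephb2* and *Ntn5* are not analysed here. The control animals were HDAC4 fl/fl littermates, called wild-type, and the HDAC4 cKO animals carried the same floxed alleles together with a Nav1.8-driven Cre, all labelled C57Bl/6 and from lines that had been backcrossed to C57Bl/6J (n = 3 arrays per group). Nav1.8-Cre acts in nociceptors from embryonic life onward, so the other neurons, glia, vessels and connective tissue of the ganglion keep *Hdac4*, and the Cre allele itself was present in the cKO group alone.

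Guidance molecules steer growing axons by attraction or repulsion. Class 3 semaphorins are secreted and bind neuropilins, which signal through plexins, whereas most other semaphorins are membrane-bound and bind plexins directly. Slits repel axons through Robo receptors, netrins attract through Dcc and repel through Unc5 receptors, and ephrins are membrane-anchored ligands of the Eph receptor tyrosine kinases. In embryonic DRGs, Sema3A, acting on neuropilin-1 and plexin-A4, keeps sensory axons out of inappropriate territory, and Slits promote the branching of sensory axons in the spinal cord.

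Values are log2 expression values from Affymetrix Mouse Gene 2.0 ST arrays. The authors had normalized them by RMA, a robust average over the probes of each probe set. Values ranged from 2.35 to 14.03, with array medians of 6.43 to 6.5. Levels of different genes come from different probes and are not set against each other. The floxed gene, *Hdac4*, read 9.22, 9.49 and 9.19 in the wild-type arrays and 9.17, 9.14 and 9.21 in the cKO arrays, which overlap. The exons its probe set covers are not given in the sources used here. By RT-qPCR the study found significantly less *Hdac4* mRNA in the cKOs, within and outside the floxed exons. Its Western blots showed less HDAC4 protein in the DRGs. The authors expected residual expression, likely from cells that the Cre does not target. The 10 sensory neuron markers measured had a mean of 11.35 to 11.45 in each array. The noncoding RNA gene *Xist*, transcribed from the inactive X chromosome, read 11.60 to 11.74 in all wild-type arrays and cKO replicate 1, and 6.67 and 5.95 in cKO replicates 2 and 3. The Y-linked genes were high in the latter 2 arrays, with means of 8.76 and 8.6 against 4.32 to 4.65 in the other 4. The study states that its groups were matched for age and sex in every experiment. Sex was not given in the labels, and by these values it is in part confounded with genotype. The difference between cKO replicate 1 alone and the wild-type mean is therefore given beside the main results. All 12 skeletal muscle markers had positive values, with array means of 6.81 to 8.4 in the wild-type group and 8.27 to 9.02 in the cKO group, and their part in the results was not tested.

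No guidance gene passed the test between genotypes. Differences are log2 fold changes, cKO minus wild-type, from limma, with 2-sided p values. The Benjamini-Hochberg adjustment covered the 41345 probe sets of the array. Of the 66 members, 0 had an adjusted p under 0.05 (background 0% of probe sets), and the smallest adjusted p from limma was 0.64. At an unadjusted p under 0.05 there were 6 members, 4 higher (*Sema3g*, *Ephb6*, *Plxna4*, *Plxnd1*) and 2 lower (*Sema3d*, *Epha3*) in the cKOs. This is 9.09% of the members, where 5.48% of all genes were under that threshold, 2.67% higher and 2.8% lower. The 2 groups of arrays did not overlap for 7 of 66 members (10.6%), 6 higher and 1 lower, which is below the 13.7% of all genes without overlap, 6.3% higher and 7.4% lower. The first share is thus above and the second below that of all genes, and neither difference was tested. The study describes groups of cKOs and littermates but does not state that each array held the RNA of 1 animal, so the p values describe the variation among the arrays.

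The confidence intervals of the difference between genotypes were narrow for most members. They come from the fit with group as its only term, so they do not allow for the partial confounding with sex. Signal over background could not be judged, so a narrow interval need not limit the change in a transcript. For 65 of 66 members (98.5%) the 95% confidence interval of this difference stayed inside 0.5 log2 units on either side of 0, compared with 87.3% of all genes. It stayed inside 0.25 for 26 members. *Sema3d* was the exception at the wider limit, with an interval that reached -0.68. Point estimates ran from -0.39 to 0.26. The median log2 fold change was 0.04 over the 34 ligands and 0.00 over the 32 receptors, beside 0.00 over all genes.

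**Figure D1:**
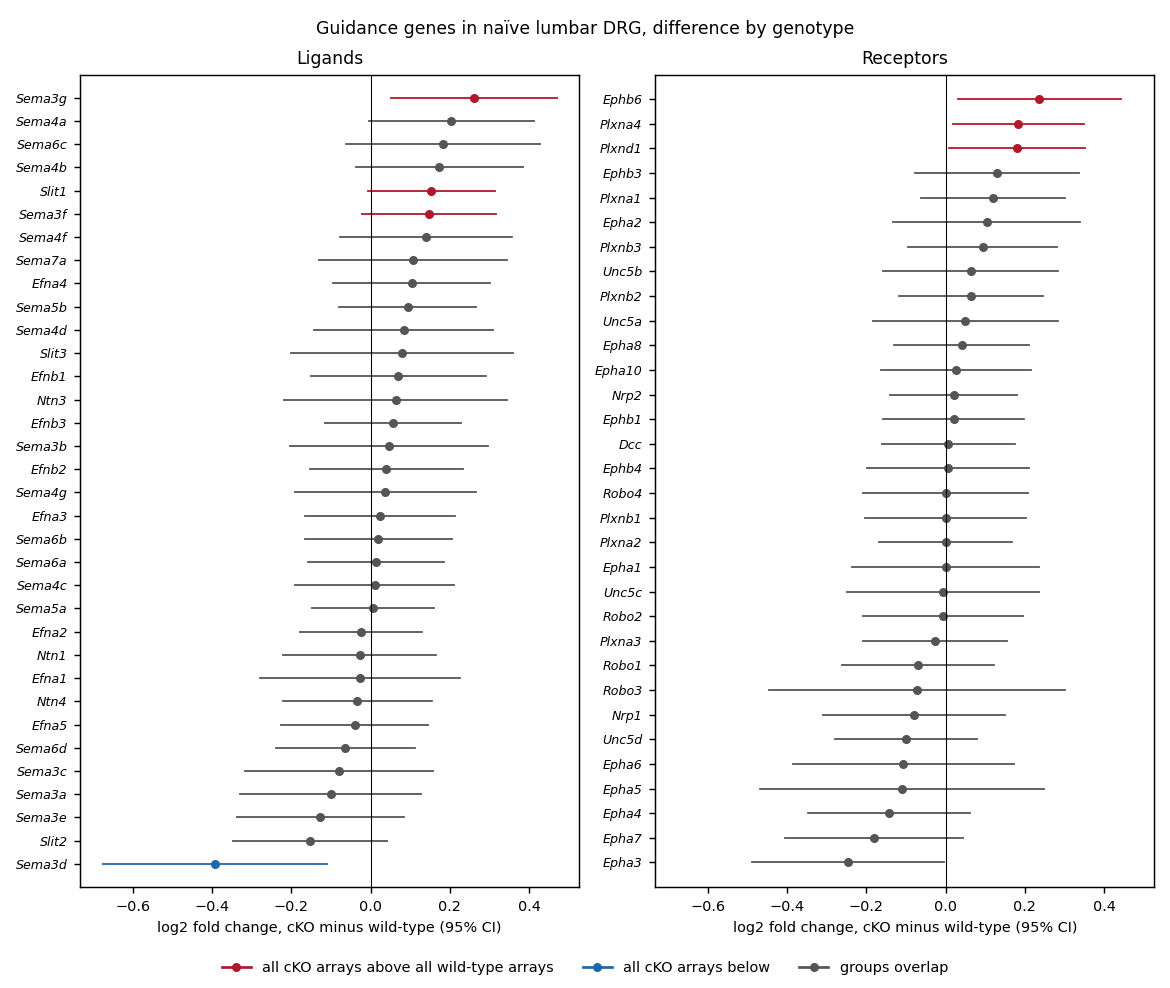
Log2 fold change (cKO minus wild-type) of the 34 ligands and the 32 receptors, with limma's 95% confidence interval as a horizontal bar and the vertical line at 0. Red marks the 6 members with all cKO arrays above all wild-type arrays and blue the 1 member with all of them below. *Sema3d* is lowest, at -0.39, and *Sema3g* highest, at 0.26.

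The largest differences in either direction were in class 3 semaphorin genes, and they pointed opposite ways. *Sema3d* encodes a secreted semaphorin known in mice from the patterning of pulmonary veins. It read 8.14, 8.42 and 8.45 in the wild-type arrays and 7.95, 8.08 and 7.80 in the cKO arrays. All cKO arrays were below all wild-type arrays, although the lowest wild-type and highest cKO array lay close together. The log2 fold change was -0.39 (standard error 0.12, 95% confidence interval -0.68 to -0.11, unadjusted p = 0.0137 and adjusted p = 0.64 from limma). This corresponds to 0.761 times the wild-type level. The exact permutation p was 0.1, the smallest that 3 arrays against 3 can give. Replicate 1 of the cKO group alone was 0.39 below the wild-type mean, and the mean of the other 2 cKO arrays was 0.40 below it.

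Markers of fibroblasts and meninges were also lower in the cKO arrays. Of the 10 listed markers 9 had a negative log2 fold change, with array means of 10.46 to 10.51 in the wild-type group and 10.31 to 10.42 in the cKO group. The receptor gene *Pdgfra*, one of them, was at -0.26 with no overlap (standard error 0.10). The part of this shift in the *Sema3d* value was not tested. In whole ganglia, fewer cells of a type and less RNA per cell cannot be told apart.

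*Sema3g*, which encodes a secreted ligand of neuropilin-2 found in blood vessels, went the other way. It read 7.96, 7.89 and 7.91 in the wild-type arrays and 8.20, 8.04 and 8.30 in the cKO arrays. The wild-type values were tightly grouped and the lowest cKO value, that of replicate 2, was nearest to them. The log2 fold change was 0.26 (standard error 0.09, 95% confidence interval 0.05 to 0.47, unadjusted p = 0.0223 and adjusted p = 0.642 from limma). The cKO level was 1.2 times that of wild-type. Replicate 1 of the cKO group alone was 0.28 above the wild-type mean. Endothelial markers read 8.13 to 8.20 on average in the wild-type arrays and 8.0 to 8.28 in the cKO arrays, 4 of 8 positive. Smooth muscle and pericyte markers read 8.53 to 8.61 and 8.64 to 8.81, with 7 of 8 positive. One of them, *Des*, which skeletal muscle also expresses, was at 0.81. Without it, a choice made after its value was seen, the array means overlapped, at 8.75 to 8.81 in wild-type and 8.77 to 8.96 in cKO arrays.

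The promoters of these 2 genes are shown because theirs were the largest differences in each direction. The 250 bases before the start of transcription are given from RefSeq (GRCm38.p6), for *Sema3d* chr5:12382916-12383165 and for *Sema3g* chr14:31217623-31217872, both on the plus strand. Capitals mark matches on either strand to TATAA, the core of a TATA box, to the GC box GGGCGG, and to TGACG, the core of a cyclic AMP response element. The consensus site of MEF2, the transcription factor family that HDAC4 binds, was searched as well.
Sema3d: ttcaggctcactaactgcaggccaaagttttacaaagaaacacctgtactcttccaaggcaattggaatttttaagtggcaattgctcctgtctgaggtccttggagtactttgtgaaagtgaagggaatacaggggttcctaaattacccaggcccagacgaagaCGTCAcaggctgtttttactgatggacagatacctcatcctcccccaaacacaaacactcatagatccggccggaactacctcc
Sema3g: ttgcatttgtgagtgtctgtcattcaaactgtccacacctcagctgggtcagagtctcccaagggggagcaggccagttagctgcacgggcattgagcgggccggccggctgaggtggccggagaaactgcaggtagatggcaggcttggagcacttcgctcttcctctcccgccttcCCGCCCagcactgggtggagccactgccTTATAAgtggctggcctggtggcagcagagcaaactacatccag

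The *Sema3d* window held 1 match, a TGACG on the opposite strand starting 84 bases before the transcription start. The *Sema3g* window held a GC box on the opposite strand 72 bases before the start and TATAA on both strands, overlapping, at 44 and 43 bases before it. The *Sema3d* window was 46.8% G and C with 4 CpG dinucleotides, and the *Sema3g* window 60.4% with 8. Windows were available for 56 of the 66 members, 72 in all. Of these, 52 (72.2%) held a GC box, 5 (6.94%) TATAA, 7 (9.72%) TGACG and 1 (1.39%) the MEF2 consensus. Among 21263 windows of protein-coding genes the shares were 42.6%, 20.3%, 20.2% and 2.61%. Median G and C content was 64.4% in the members and 55.6% in all. A match describes the letters alone and is not evidence of a bound site.

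The other class 3 semaphorins differed by less. *Sema3f*, a repellent that acts through neuropilin-2, read 8.78, 8.75 and 8.80 in wild-type and 8.85, 8.93 and 8.99 in cKO arrays. The groups did not overlap, and the difference was 0.15 (standard error 0.07, 95% confidence interval -0.02 to 0.32). Replicate 1 of the cKO group alone was 0.07 above the wild-type mean, and the other 2 cKO arrays 0.18 above it on average. *Sema3a*, which encodes the best known repellent of nociceptive axons, read 5.47, 5.58 and 5.75 in wild-type and 5.57, 5.42 and 5.51 in cKO arrays. These overlapped, with a difference of -0.10 (95% confidence interval -0.33 to 0.13). All *Sema3a* values were below the array medians of 6.43 to 6.5, and its signal over background could not be judged. *Sema3b*, *Sema3c* and *Sema3e*, the last encoding the ligand of plexin-D1, had differences of 0.05, -0.08 and -0.13, each with overlap. RefSeq places *Sema3a*, *Sema3c*, *Sema3d* and *Sema3e* on chromosome 5, and all 4 had negative values. *Sema3b* and *Sema3f* lie on chromosome 9 and *Sema3g* on chromosome 14, and these 3 had positive values, also after cyclic loess normalization. The split was not kept in every subset of arrays, since *Sema3b* was at -0.05 without cKO replicate 3 and *Sema3c* at 0.00 without wild-type replicate 1. For cKO replicate 1 alone, *Sema3b* minus the wild-type mean was -0.10, and the other class 3 genes kept their signs. Of the 7 genes, only *Sema3d* and *Sema3g* were under an unadjusted p of 0.05.

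The 13 membrane-bound and other semaphorin genes of classes 4 to 7 had mostly positive values. Of these 12 were positive and 1 negative, also after cyclic loess, with a median log2 fold change of 0.08 and a range of -0.06 to 0.20, and 0 had an unadjusted p under 0.05. Without cKO replicate 3, however, 9 were positive, 4 were negative and the median was 0.03. With an indicator for the 2 low-*Xist* arrays as a covariate, 9 were likewise positive and 4 negative, with a median of 0.03. *Sema4a*, known for its role in T-cell and retinal biology, had the smallest p. It read 7.36, 7.53 and 7.42 in wild-type and 7.70, 7.52 and 7.70 in cKO arrays. The groups overlapped through cKO replicate 2, and the difference was 0.20 (standard error 0.09, adjusted p = 0.673 from limma). *Sema4b*, *Sema6c* and *Sema4f* followed with 0.17, 0.18 and 0.14. *Sema7a*, which encodes a lipid-anchored semaphorin, had 0.11, and *Sema4d*, whose product binds plexin-B1, had 0.08. For cKO replicate 1 alone, the difference from the wild-type mean was 0.26 for *Sema4a* and 0.11 for *Sema4d*. It was 0.05 for *Sema4b*, 0.04 for *Sema6c*, 0.02 for *Sema4f* and -0.04 for *Sema7a*. *Sema6d*, the negative one, was at -0.06, and *Sema5a*, *Sema4c*, *Sema6a*, *Sema6b*, *Sema4g* and *Sema5b* lay between 0.01 and 0.09. In *Sema5a* the 6 arrays spanned 0.07, the narrowest range of any member together with *Efna2*.

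Among the Slit genes, *Slit1* and *Slit2* had differences of equal size and opposite sign. *Slit1* read 10.11, 10.05 and 10.10 in wild-type and 10.20, 10.23 and 10.29 in cKO arrays, without overlap. Its difference was 0.15 (standard error 0.07, 95% confidence interval -0.01 to 0.31). For *Slit1*, cKO replicate 1 alone was 0.11 above the wild-type mean, and the other 2 cKO arrays 0.17 above it on average. *Slit2* read 9.94, 9.92 and 9.80 in wild-type and 9.83, 9.66 and 9.71 in cKO arrays. These overlapped, with a difference of -0.15 (standard error 0.08, 95% confidence interval -0.35 to 0.04). For *Slit2*, cKO replicate 1 minus the wild-type mean was -0.06, and the mean of the other 2 cKO arrays minus it was -0.20. *Slit3* was at 0.08. None of the 3 was under an unadjusted p of 0.05 in limma.

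Netrin and ephrin ligands showed small differences. *Ntn1*, which encodes the classical midline attractant, read 8.08, 8.01 and 7.96 in wild-type and 7.88, 8.03 and 8.06 in cKO arrays. The groups overlapped throughout, with a difference of -0.03 (95% confidence interval -0.22 to 0.17). *Ntn3* read 6.87, 6.77 and 7.02 against 6.76, 7.12 and 6.97, a difference of 0.06, and *Ntn4*, a netrin of basement membranes, was at -0.03. The 5 ephrin-A genes lay between -0.04 and 0.10 and the 3 ephrin-B genes between 0.04 and 0.07, and 0 of these 8 had an unadjusted p under 0.05. *Efna1*, *Efna2* and *Efna3* were at -0.03, -0.02 and 0.02 and *Efnb2*, whose product marks arteries, at 0.04.

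Within the ephrins, *Efna4* had the smallest p of the A class. It read 6.06, 5.97 and 6.01 in wild-type and 6.21, 5.99 and 6.15 in cKO arrays, a difference of 0.10 with overlap. *Efna5*, a repellent of retinal and sensory axons, read 9.07, 9.08 and 8.94 against 8.92, 9.0 and 9.05, a difference of -0.04 (95% confidence interval -0.23 to 0.15). In the B class, *Efnb1* read 9.41, 9.25 and 9.32 against 9.25, 9.47 and 9.47, a difference of 0.07. Here cKO replicate 1 equalled the lowest wild-type array while the other 2 cKO arrays were the highest. *Efnb3*, whose product forms a midline barrier in the spinal cord, read 7.35, 7.26 and 7.38 against 7.44, 7.37 and 7.35, a difference of 0.06.

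Of the receptors, plexin genes held 2 of the 3 without overlap between the groups. *Plxna4*, which encodes the plexin that signals for Sema3A in sensory neurons, read 10.52, 10.43 and 10.43 in wild-type and 10.60, 10.69 and 10.64 in cKO arrays. The spread within each group was smaller than the gap between their means. Its difference was 0.18 (standard error 0.07, 95% confidence interval 0.02 to 0.35, unadjusted p = 0.0352 and adjusted p = 0.652 from limma). *Plxnd1*, the Sema3E receptor gene of vessels and neurons, read 10.23, 10.19 and 10.19 in wild-type and 10.32, 10.36 and 10.47 in cKO arrays. The wild-type arrays agreed to within 0.04 while cKO replicate 3 stood above the other cKO arrays. Its difference was 0.18 (standard error 0.07, 95% confidence interval 0.01 to 0.35, unadjusted p = 0.0431 and adjusted p = 0.661 from limma). Replicate 1 of the cKO group alone was above the wild-type mean by 0.14 for *Plxna4* and by 0.12 for *Plxnd1*. In sensory neuron markers the array means were 11.35 to 11.37 in wild-type and 11.38 to 11.45 in cKO arrays (8 of 10 positive), and the part of this in the plexin values was not tested.

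**Figure D2:**
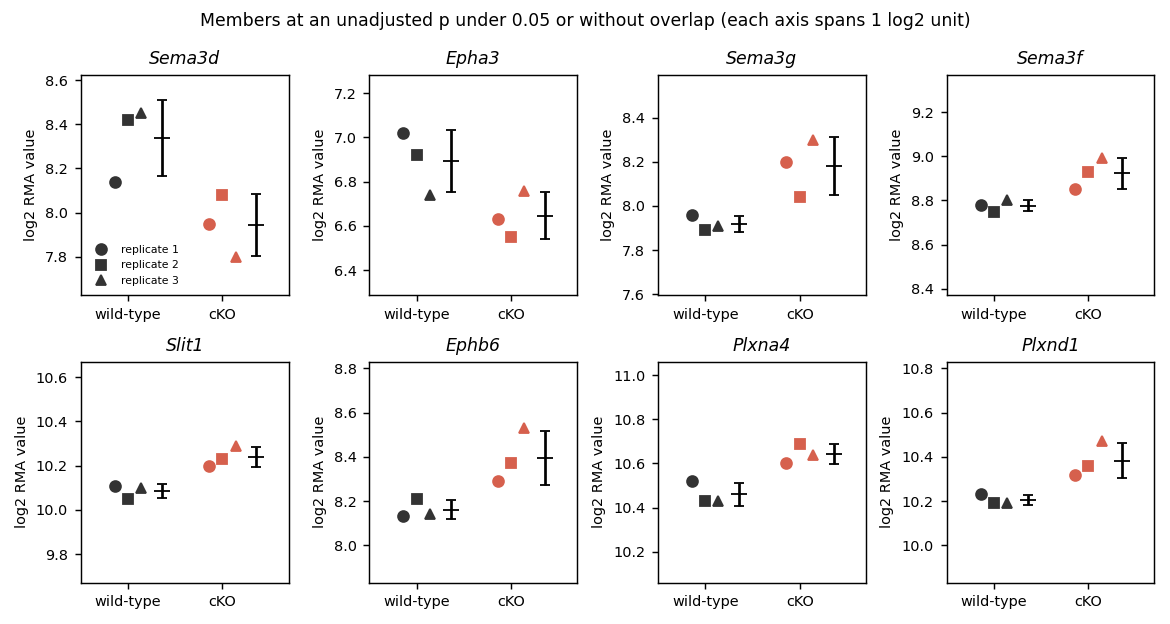
Log2 RMA value in each of the 6 arrays for the 8 members under an unadjusted p of 0.05 or without overlap between groups, with symbols for the replicate number and bars for mean ± SD (n = 3). Each vertical axis spans 1 log2 unit. All cKO points lie below wild-type for *Sema3d* and above it for *Sema3g*, *Sema3f*, *Slit1*, *Ephb6*, *Plxna4* and *Plxnd1*, while *Epha3* overlaps through 1 array of each group.

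The remaining plexins and the neuropilins differed little. *Plxna1* was at 0.12, *Plxnb3* at 0.09, *Plxnb2* at 0.06 and *Plxna3* at -0.03, and both *Plxna2* and *Plxnb1* had equal means in the 2 groups. *Nrp1*, which encodes the Sema3A-binding subunit, read 10.18, 10.21 and 9.99 in wild-type and 10.17, 9.97 and 10.0 in cKO arrays. The arrays of the 2 groups were intermixed, and the difference was -0.08 (standard error 0.10, 95% confidence interval -0.31 to 0.15). *Nrp2* was at 0.02, with a range of 0.10 over the 6 arrays. For Sema3A signaling the ligand, *Nrp1* and *Plxna4* thus had values of -0.10, -0.08 and 0.18, none past the adjusted test.

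Eph receptor genes held the other 2 receptors under an unadjusted p of 0.05. *Ephb6*, which encodes an Eph receptor without kinase activity, read 8.13, 8.21 and 8.14 in wild-type and 8.29, 8.37 and 8.53 in cKO arrays. The groups did not overlap, and cKO replicate 3 was the highest. Its difference was 0.24 (standard error 0.09, 95% confidence interval 0.03 to 0.44, unadjusted p = 0.0295 and adjusted p = 0.647 from limma), 1.18 times wild-type. Replicate 1 of the cKO group was 0.13 above the wild-type mean and the other 2 cKO arrays 0.29 above it on average. *Epha3*, which encodes a receptor for ephrin-A5, read 7.02, 6.92 and 6.74 in wild-type and 6.63, 6.55 and 6.76 in cKO arrays. It overlapped through wild-type replicate 3 and cKO replicate 3. The difference was -0.25 (standard error 0.10, 95% confidence interval -0.49 to -0.00, unadjusted p = 0.0474 and adjusted p = 0.666 from limma). For *Epha3*, cKO replicate 1 minus the wild-type mean was -0.26, and the mean of the other 2 cKO arrays minus it was -0.24.

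The EphA genes included several negative values beside *Epha3*. *Epha4*, whose product binds ephrins of both classes, read 7.69, 7.65 and 7.50 in wild-type and 7.40, 7.56 and 7.45 in cKO arrays, a difference of -0.14 (95% confidence interval -0.35 to 0.06). *Epha7* was at -0.18, and *Epha5* and *Epha6* were at -0.11 each. Without cKO replicate 3 the *Epha6* value was 0.0017, and cKO replicate 1 alone was 0.09 above the wild-type mean of *Epha6*. *Epha5* had the widest range of any receptor, reading 7.38, 7.57 and 7.28 in wild-type and 7.43, 7.47 and 7.0 in cKO arrays, so that its negative value rests on cKO replicate 3. Of the 9 EphA genes 5 were negative, 3 positive and 1 at 0, and after cyclic loess 6 were negative and 3 positive. Their median was -0.11. Without cKO replicate 3 it was 0.04, with 6 of 9 positive. *Epha1* had equal means, and *Epha2*, *Epha8* and *Epha10* were at 0.10, 0.04 and 0.03. The 4 EphB genes were all positive, also after cyclic loess, at 0.02 for *Ephb1*, 0.01 for *Ephb4*, 0.13 for *Ephb3* and 0.24 for *Ephb6*, but 2 of the 4 were negative without cKO replicate 3. *Ephb1* read 6.27, 6.26 and 6.27 in wild-type and 6.20, 6.28 and 6.38 in cKO arrays.

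Receptors for Slits and netrins did not separate the genotypes. *Robo1* read 9.05, 9.02 and 9.13 in wild-type and 8.89, 9.02 and 9.08 in cKO arrays, a difference of -0.07 (95% confidence interval -0.26 to 0.12). *Robo2* read 10.79, 10.79 and 10.88 against 10.89, 10.87 and 10.68, a difference of -0.01 (95% confidence interval -0.21 to 0.20). Both sets of values were intermixed. *Robo3*, a receptor gene of commissural axons, was at -0.07, with cKO replicate 1 at 4.36 below the other 5 arrays (4.64 to 4.89), and *Robo4*, an endothelial one, had equal means. *Dcc*, the netrin receptor gene, read 6.25, 6.22 and 6.35 against 6.27, 6.26 and 6.31, a difference of 0.01. *Unc5c* read 8.53, 8.60 and 8.41 against 8.62, 8.34 and 8.56, a difference of -0.01, and *Unc5d* read 6.97, 7.07 and 6.89 against 6.88, 6.85 and 6.90, a difference of -0.10. *Unc5a* and *Unc5b* were at 0.05 and 0.06. The 95% confidence interval was -0.16 to 0.17 for *Dcc* and -0.25 to 0.24 for *Unc5c*. All *Dcc* values were below the array medians of 6.43 to 6.5, as were those of *Sema3a*, *Efna4*, *Epha1*, *Ephb1* and *Robo3*. Signal over background could not be judged for these genes, so a narrow interval there does not limit the change in the transcript.

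One array stood above the others for many of the members. Replicate 3 of the cKO group was the highest of the 6 arrays, ties included, for 26 of the 66 members (39.4%), while it was the highest for 24.6% of all genes. The other arrays were highest for 8 to 12 members each. The ligands' median deviation from their 6-array means was 0.09 in cKO replicate 3 and between -0.04 and 0.01 in the other arrays. Without cKO replicate 3 the median log2 fold change of the ligands was 0.00. Spread between replicates was slightly lower for members than in general, with a median residual standard deviation of 0.0908 compared with 0.107 over all genes. X-linked members showed no common direction between genotypes, with *Efnb1* at 0.07, *Plxna3* at -0.03 and *Plxnb3* at 0.09. These differences do not compare the low-*Xist* arrays with the others. *Efnb1* read 9.47 in both low-*Xist* arrays and 9.25 to 9.41 in the others, whereas the *Plxna3* and *Plxnb3* values of these sets of arrays overlapped.

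**Figure D3:**
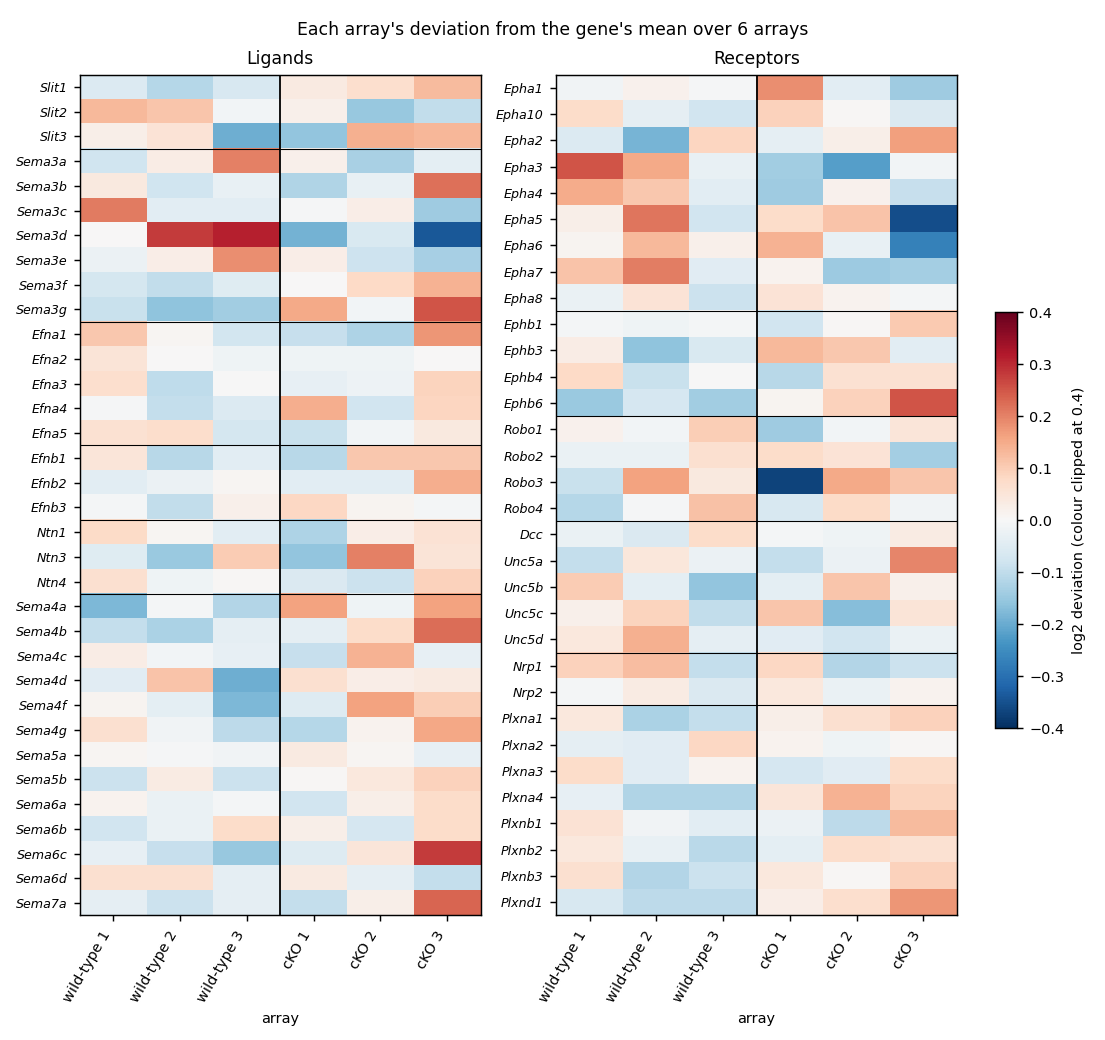
Deviation of each array from the gene's mean over the 6 arrays (log2, colour scale from -0.4 to 0.4) for ligands and receptors, with families divided by horizontal lines and the groups by a vertical line. Replicate 3 of the cKO group was the highest array for 26 of 66 members, and *Sema3d* and *Epha5* are low there.

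For 3 members a second probe set carries the same single symbol. For *Plxna1* the second one read 6.72, 6.90 and 6.67 in wild-type and 7.07, 6.92 and 6.93 in cKO arrays. Its groups did not overlap, with a difference of 0.21 (standard error 0.09), in the same direction as the 0.12 of the probe set used. For *Ephb1* the second probe set had a difference of 0.10 and for *Plxnb1* one of -0.04, both with overlap.

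The partners of these pathways outside the families are adhesion molecules, further ligands or receptors, and cytoplasmic effectors. Of 17 measured adhesion molecules and further ligands or receptors, 0 were under an unadjusted p of 0.05, 9 had positive and 8 negative values, and the median was 0.03. Of 43 measured cytoplasmic effectors, 3 were higher and 1 lower at that threshold (2.67% and 2.8% of all genes), 0 passed the adjusted test and the median was 0.03. The groups did not overlap for 12 of the 43 effectors (27.9%), 7 higher and 5 lower, compared with 13.7% of all genes, and for 3 of the 17 others (17.6%). The higher ones at the unadjusted threshold were *Mical1*, which encodes an actin-oxidizing effector of plexins, at 0.26 (standard error 0.10), *Limk2*, a cofilin kinase gene, at 0.26 (standard error 0.09) and *Arhgef11*, which encodes a partner of plexin-B, at 0.19 (standard error 0.07). The lower one at that threshold was *Chn2*, a Rac inhibitor gene of the chimaerin family, at -0.17 (standard error 0.06). *Mical1* read 9.29, 9.33 and 9.30 in wild-type and 9.39, 9.63 and 9.69 in cKO arrays, with cKO replicate 1 nearest to wild-type. *Chn2* read 10.17, 10.15 and 10.12 in wild-type and 10.01, 9.98 and 9.95 in cKO arrays, without overlap. The collapsin response mediator genes *Crmp1*, *Dpysl2*, *Dpysl3*, *Dpysl4* and *Dpysl5*, effectors of Sema3A, had values between -0.02 and 0.10.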

How the data were processed

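Lumbar DRG RNA from 3 wild-type (HDAC4 fl/fl) and 3 HDAC4 cKO samples was hybridized to Mouse Gene 2.0 ST arrays. The deposited log2 values are the output of RMA, which the authors ran in R through oligo: background correction, quantile normalization and summary per probe set. Versions are not given in the sources used here. Without detection calls the signal over background could not be judged. Precision is limited by having 3 arrays a group. All 41345 probe sets were fitted with limma 3.58.1 (R 4.3.3, lmFit and eBayes, group as the only term), and the fit was tested on simulated data. Gene symbols came from the platform annotation, and all 66 member symbols equalled RefSeq's. A gene was represented by the single-symbol probe set with the highest mean over the 6 arrays. Exact permutation tests were 2-sided over 20 arrangements.

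The members and lists were chosen with earlier results of these data known. Members are given with the value of every array if under an unadjusted p of 0.05, without overlap, smallest in p in their family, widest in range, or one of the well-studied ligand and receptor genes of DRGs. The lists comprise adhesion molecules and further receptors, cytoplasmic effectors, and markers of sensory neurons, skeletal muscle, fibroblasts and meninges, smooth muscle and pericytes, endothelium, Schwann cells, satellite glia, oligodendrocytes, macrophages and sex-linked genes. Median log2 fold changes of the lists not described in the results were 0.01 for Schwann cells, 0.05 for satellite glia, 0.09 for oligodendrocytes and spinal cord, 0.01 for macrophages and 1.10 for skeletal muscle. Alternatives were cyclic loess, probe sets above the median, a robust eBayes with a mean trend, probe sets with 1 symbol, leaving out each array, the replicate number as a block, array weights, an indicator for the 2 arrays with low *Xist*, and the mean of a gene's probe sets.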

Additional observations from a re-analysis of the deposited data

How the results depend on the processing

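In every alternative 0 members had an adjusted p under 0.05, whereas the count at an unadjusted p under 0.05 (6) moved. It was 11 with array weights (7.8% of all genes) and 2 with the replicate block (*Sema3d* and *Sema3g*, 3.3% of all genes). With 1 array left out it was 2 to 7, where 3.35% to 9.27% of all genes were under that threshold. The lowest count with 1 array left out, 2, was without cKO replicate 3 (4.6% of all genes). The highest, 7, was without cKO replicate 1 (9.27% of all genes). It was 3 without any one wild-type array (3.81%, 3.35% and 3.55% of all genes for replicates 1 to 3) or cKO replicate 2 (4.08%). *Sema3d* was under that threshold with each array left out in turn. With the sex indicator the genotype difference rests on cKO replicate 1, whose spread is taken from the other arrays. No count at the unadjusted threshold is therefore given for that setting. In it the log2 fold changes were -0.39 for *Sema3d*, 0.28 for *Sema3g* and -0.26 for *Epha3*. Those of *Plxna4*, *Ephb6* and *Plxnd1* were 0.14, 0.13 and 0.12. The methods describe RNA extraction in matched groups, without naming the array samples, and no source ties a replicate number to a litter or batch. No shared deviation of same-numbered arrays from their group means was seen (r = -0.04, -0.08 and -0.08), which does not exclude a pairing.

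The count without overlap (7) was 12 after cyclic loess (15.7% of all genes), and 10 to 23 with 1 array left out, where 21.1% to 31.8% of all genes did not overlap because fewer arrays are compared. It was 12 without wild-type replicate 1 (23.4% of all genes) and without cKO replicate 3 (23%), and 11 without wild-type replicate 2 (21.1%). Without wild-type replicate 3 it was 19 (22.1%), without cKO replicate 1 23 (31.8%) and without cKO replicate 2 10 (22.4%). The median of the ligands (0.04) was -0.03 with the sex indicator and 0.00 to 0.06 with 1 array left out. The median of the receptors stayed between 0.00 and 0.02.

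Of the 26 genes given by array, *Dcc*, *Epha5*, *Ephb1*, *Ntn1*, *Ntn3*, *Robo2*, *Unc5c*, *Efnb1* and *Nrp1* changed sign in some setting. With the sex indicator the log2 fold changes were -0.0033 for *Dcc*, -0.077 for *Efnb1*, 0.02 for *Epha5*, -0.067 for *Ephb1*, 0.043 for *Nrp1*, -0.13 for *Ntn3*, 0.07 for *Robo2* and 0.11 for *Unc5c*. *Robo2* had 0.0074 with array weights and *Unc5c* 0.0073 after cyclic loess. With 1 array left out *Dcc* ranged from -0.02 to 0.045, *Epha5* from -0.195 to 0.04, *Ephb1* from -0.027 to 0.063, *Ntn1* from -0.062 to 0.028, *Ntn3* from -0.022 to 0.158, *Robo2* from -0.045 to 0.06 and *Unc5c* from -0.063 to 0.077. The cause was not tested. The other 17 kept their sign in all settings that included them. Probe sets above the median left out 7 of the 66 members.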
